A study of Mus musculus with 12 samples.

Results

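Cdx1, Cdx2, Cdx4, Tlx2, Nkx1-2, Evx1 and T were followed in mouse embryonic stem cells (mESCs) by RNA-seq. They are 7 of the 39017 genes in the gene table. They were picked because Cdx1, Tlx2 and Nkx1-2 were among the genes with the highest 2i over serum fold changes, and the other genes were added as posterior factors of the same kind. Levels in 2i against serum are therefore given as a description, without a test. All 7 genes passed the filter on low counts.

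The study asked how DNA methylation affects Polycomb targets in naive mESCs, and compared 2 male lines in 2 media, which gives 4 groups of 3 biological replicates. J1 is a wild-type line. 3B3L (3B3-3l in the labels) lacks Dnmt3a and Dnmt3b (Dnmt3a-/-, Dnmt3b-/-) and carries transgenes for Dnmt3b and for its cofactor Dnmt3l, both driven by the CAG promoter, so that methylation does not depend on the endogenous genes. It was obtained by drug selection of transfected cells. Serum medium contained fetal calf serum and LIF (500 U/ml in the labels). 2i was a defined N2B27 medium with LIF at 1000 U/ml, the MEK inhibitor PD0325901 at 1 µM and the Gsk3 beta inhibitor CHIR99021 at 3 µM. In serum, J1 was grown on inactivated feeder cells and 3B3L on gelatin, so in that medium substrate and line cannot be told apart. The paper depleted feeders by repeated plating before analysis or conversion to 2i.

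These genes encode transcription factors of the posterior end of the embryo. The caudal homeobox factors CDX1, CDX2 and CDX4 act in axial elongation and in patterning of the trunk through Hox genes, and CDX2 also specifies trophectoderm and gut epithelium. T (Brachyury) is the founding T-box factor, needed for mesoderm and the notochord. EVX1 is an even-skipped homologue expressed in the primitive streak, NKX1-2 is a homeobox factor of the caudal epiblast that holds neuromesodermal progenitors, and TLX2 is a homeobox factor of the neural crest and enteric neurons. Several of them are known to respond to Wnt signalling, which is switched on when Gsk3 is inhibited.

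The upstream sequences of a gene that was much higher in 2i (Nkx1-2), of T, and of a gene that was not (Cdx4) are shown, because the lines were built to differ in DNA methylation. Each is the 250 bases before the RefSeq start on GRCm38.p6, written 5′ to 3′ on the gene's own strand. Capitals mark CpG dinucleotides and, in T, 1 match to a TCF motif. The windows are chr7:132599638-132599887 (minus strand) for Nkx1-2, chr17:8434173-8434422 (plus strand) for T and chrX:103321148-103321397 (plus strand) for Cdx4.
Nkx1-2: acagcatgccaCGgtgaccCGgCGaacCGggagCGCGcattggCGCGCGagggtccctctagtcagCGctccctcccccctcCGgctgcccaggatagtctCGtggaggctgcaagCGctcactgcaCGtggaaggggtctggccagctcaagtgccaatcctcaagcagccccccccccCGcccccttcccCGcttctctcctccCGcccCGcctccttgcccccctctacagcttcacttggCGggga
T: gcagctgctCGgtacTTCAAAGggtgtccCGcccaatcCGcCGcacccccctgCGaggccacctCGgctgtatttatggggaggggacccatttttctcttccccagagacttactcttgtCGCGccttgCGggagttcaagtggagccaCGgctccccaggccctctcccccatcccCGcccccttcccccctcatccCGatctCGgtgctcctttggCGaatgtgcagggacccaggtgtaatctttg
Cdx4: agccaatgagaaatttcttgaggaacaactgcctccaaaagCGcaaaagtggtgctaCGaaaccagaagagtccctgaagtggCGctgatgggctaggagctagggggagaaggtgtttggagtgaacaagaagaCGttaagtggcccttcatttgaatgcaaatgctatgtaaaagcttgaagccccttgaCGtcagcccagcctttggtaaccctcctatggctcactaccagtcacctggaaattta

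The Nkx1-2 window held 19 CpGs, more than 80.3% of the 32851 promoters of that length, and the T window held 14. The Cdx4 window held 5, fewer than the promoter median of 6. Windows of Cdx2 and Evx1 held 13 and 10. Promoters of Cdx1 and Tlx2 were not analysed here. The TCF letters searched were CTTTGAT and CTTTGAA on both strands. A match stood only in the T window, as TTCAAAG with its first base at position -235 from the start, and 7.48% of all promoters held one. Methylation of these windows was not analysed here.

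Libraries held 37050652 to 44515395 estimated reads. Levels are counts scaled to a common depth (CPM) with TMM library sizes, and 3 counts in a library correspond to 0.0683 to 0.0813 CPM. In 2i, Dnmt3b had 913 to 936 CPM in 3B3L against 41 to 47.2 in J1, and Dnmt3l at 285 to 294 against 47.9 to 55.5 CPM. Dnmt3a reads were still counted in 3B3L, at 29.3 to 34.3 CPM in serum and 3.99 to 5.07 CPM in 2i, and which part of the gene they come from was not analysed here. The mESC markers Pou5f1, Nanog, Sox2, Zfp42, Esrrb and Klf4 had means of at least 80.8 CPM in every group. Dppa3, the other marker of that list measured, had means of 39 CPM in J1 and 44.8 CPM in 3B3L in serum, and of 8.18 and 4.81 CPM in 2i.

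Cdx1 was the highest of these factors per kb of transcript in 2i in both lines. In serum the J1 libraries held 0.43, 0.675 and 0.379 CPM and the 3B3L libraries 0.261, 0.478 and 0.566 CPM. In 2i the values were 66.2, 56.2 and 54.6 CPM for J1 and 30.5, 29.7 and 29.5 CPM for 3B3L. Every 2i library lay far above every serum library, and the lines were apart in 2i but mixed in serum. The mean in J1 was 59.0 ± 6.28 CPM (SD, n = 3) in 2i and 0.495 ± 0.158 CPM in serum, a 119-fold difference, and in 3B3L the difference was 68.7-fold. Cdx1 lies on chromosome 18, from 61018862 to 61036199, on the minus strand (GRCm38.p6), and overlaps Gm52351.

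Nkx1-2 (chromosome 7, 132596239 to 132599637, minus strand) had the same shape with a wider gap between lines. Its J1 libraries held 0.406, 0.578 and 0.352 CPM in serum and 45.9, 51.1 and 47.9 CPM in 2i. Its 3B3L libraries held 0.209, 0.358 and 0.36 CPM in serum and 10.4, 10.6 and 12.7 CPM in 2i. The J1 2i libraries stood well above all others and the 3B3L 2i libraries were in between. The 2i level was 108-fold the serum level in J1 and 36.4-fold in 3B3L.

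Tlx2 (chromosome 6, 83068325 to 83070225, minus strand) was not detected in J1 in serum and was present in 2i. No read was counted in any of the 3 J1 serum libraries, and the 3B3L serum libraries held 3, 4 and 1 reads. The 2i values were 13.7, 13.2 and 13.9 CPM for J1 and, for 3B3L, 4.97, 4.82 and 5.34 CPM. Replicates in 2i lay close together and the lines did not overlap. Against a floor of 3 counts per library, Tlx2 was at least 181-fold higher in 2i than in serum in J1. In 3B3L the ratio was 74.9 (95% exact interval 37.8 to 174, from 622 reads over 8). Such intervals and floors cover counting error only.

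T (chromosome 17, 8434423 to 8442496, plus strand) was higher in 2i in both lines, from a serum level that was already detectable. J1 held 0.812, 1.01 and 0.46 CPM in serum and 12.0, 15.2 and 12.3 CPM in 2i. 3B3L held 1.46, 1.48 and 0.978 CPM in serum and 7.45, 8.36 and 8.22 CPM in 2i. The 3B3L libraries were all lower than those of J1 in 2i, and the lines overlapped in serum, where the 3B3L mean was the higher one. The 2i level was 17.3-fold the serum level in J1 and 6.13-fold in 3B3L. The locus overlaps LOC115486424 in the annotation.

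Cdx2 (chromosome 5, 147300900 to 147307249, minus strand) stayed low. The serum values were 0.215, 0.458 and 0.406 CPM for J1 and 0.417, 0.43 and 0.232 CPM for 3B3L. The 2i values were 1.59, 1.35 and 1.07 CPM for J1 and 0.769, 0.926 and 1.06 CPM for 3B3L. All 2i libraries were above all serum libraries, and the differences of 3.73-fold in J1 and 2.55-fold in 3B3L were small beside that of Cdx1.

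Cdx4 in both lines, and Evx1 in J1, went against the description of these genes as raised in 2i. Cdx4 (chromosome X, 103321398 to 103330224, plus strand) went from 1.44, 1.17 and 1 CPM in serum to 0.288, 0.255 and 0.361 CPM in 2i in the 3B3L libraries. J1 held 22, 11 and 4 reads in serum and 5, 6 and 3 reads in 2i. The 2i libraries were lower in 3B3L, with no overlap, and overlapped those in serum in J1. Cdx4 in 3B3L serum was thus the highest level of this gene in any group, at 1.20 ± 0.217 CPM (SD, n = 3).

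Evx1 (chromosome 6, 52313498 to 52318389, plus strand, overlapping the antisense gene Evx1os) was close to the floor throughout. Its reads were 4, 19 and 2 in J1 serum, 5, 0 and 11 in J1 2i, 3, 3 and 4 in 3B3L serum, and 10, 9 and 13 in 3B3L 2i. The media overlapped in J1 and were apart in 3B3L. The ratio of 2i to serum reads was 3.08 in 3B3L (95% exact interval 1.48 to 7.03) and 0.599 in J1 (0.299 to 1.17). Without J1 serum replicate 2, which held 19 of the 25 reads of its group, the fitted J1 difference changed from -0.71 to 0.70 on the log2 scale.

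**Figure D1:**
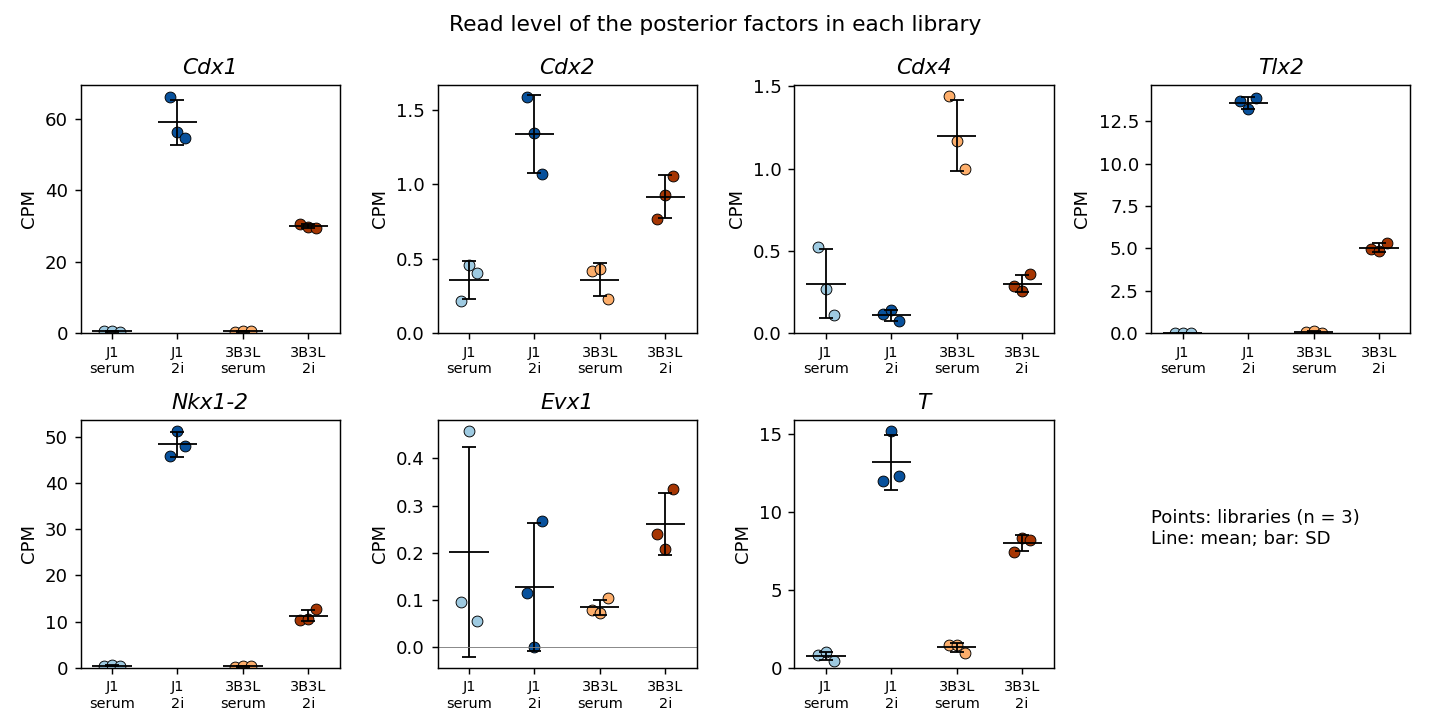
Level of each gene (CPM, linear axis, 1 panel per gene with its own scale) in the 12 libraries by line and medium. Points are libraries, horizontal lines are means and bars are SD (n = 3). Cdx1, Tlx2, Nkx1-2 and T are near the bottom in serum and highest in J1 2i, whereas Cdx4 is highest in 3B3L serum.

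Across the genes, every 2i library was above every serum library for 5 of 7 in J1 (Cdx1, Cdx2, Tlx2, Nkx1-2 and T), where 34.7% of the 17885 genes tested did the same. The count was 6 of 7 in 3B3L, with Evx1 added, where the background was 34.9%. Cdx4 in 3B3L was lower in all 2i libraries, as were 34.7% of tested genes, and none of these factors was in J1, where the background was 34.0%. These counts follow from how the genes were picked. On the log2 scale the fitted 2i over serum differences were 6.88 ± 0.15 (SE) in J1 and 6.09 ± 0.16 in 3B3L for Cdx1. For Nkx1-2 they were 6.74 ± 0.14 and 5.16 ± 0.16, and for T 4.09 ± 0.18 and 2.61 ± 0.17. By rank among all tested genes from the highest fold change, Cdx1, Nkx1-2 and T were at 7, 9 and 47 in J1 and at 19, 28 and 233 in 3B3L. Cdx2 stood at 462 and 872.

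Compared per kb of effective transcript length, the order of the factors changed between media and lines. In J1 2i it was Cdx1 (37.5 CPM per kb), Nkx1-2 (15.6), Tlx2 (10.2), T (8.32) and Cdx2 (0.643), with no overlap between neighbours. Cdx4 (0.0607) and Evx1 (0.0471) came last and overlapped. The T values leave out reads in transcripts not matched to a name, 6.69% to 16% of its reads in 2i. T is therefore understated, and its separation from Tlx2 in J1 2i is not settled. In 3B3L 2i Cdx1 again led, at 18.8 CPM per kb, and T came next at 4.74. Nkx1-2 at 3.63 and Tlx2 at 3.74 could not be separated there, whereas in J1 they did not overlap. In serum T led in both lines, at 0.411 CPM per kb in J1, where it overlapped Cdx1 at 0.313, and at 0.913 in 3B3L, where Cdx4 followed at 0.673 without overlap.

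**Figure D2:**
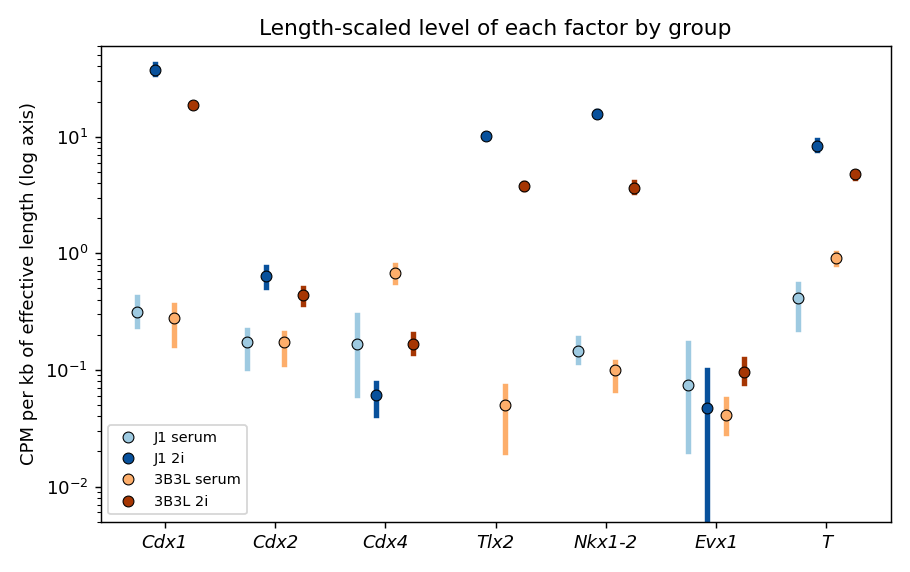
Level per kb of effective transcript length (log axis) of each gene in the 4 groups, as mean (point) and range over 3 libraries (bar). Tlx2 in J1 serum is at 0 and is not drawn, and the Evx1 bar of J1 2i runs to the foot of the axis because 1 library is at 0. Values of T leave out reads in transcripts not matched to a name. Cdx1 leads in 2i at 37.5 in J1 and 18.8 in 3B3L.

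In 2i, most of these factors were lower in 3B3L than in J1. Each genotype is a single line, so the replicates measure spread within that line. Knockouts, transgenes, drug selection and line history cannot be told apart. A gene was called at an adjusted p under 0.05 in edgeR's quasi-likelihood test (Benjamini-Hochberg over all 17885 genes tested). Of the 7 genes, 5 were called between 3B3L and J1 in 2i, 4 lower and 1 higher in 3B3L, where 45.9% of all tested genes were called. This comparison was not the one the genes were picked on. It uses the same 2i libraries, as do the alternatives below, so the picking can bear on the calls and their direction. In bulk samples, fewer cells that express a gene and less RNA per cell cannot be told apart.

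Nkx1-2 differed most, by -2.10 ± 0.09 (SE) on the log2 scale in 3B3L against J1 (edgeR adjusted p = 9.27e-11), and its J1 level was 4.29-fold higher. Tlx2 differed by -1.43 ± 0.10 (adjusted p = 5.62e-08), with a 2.69-fold higher level in J1. Cdx1 differed by -0.98 ± 0.09 (adjusted p = 2.86e-07), with a 1.97-fold higher level in J1. T differed by -0.72 ± 0.13 (adjusted p = 0.000407). For each of these 4 genes the 3 libraries of 3B3L were all below the 3 of J1, and each was called under every alternative in which it could be fitted.

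Cdx4 was the gene called in the other direction, 1.44 ± 0.51 higher in 3B3L on the log2 scale in 2i (edgeR adjusted p = 0.0295). The call rested on 37 reads against 14, a ratio of 2.75 (95% exact interval 1.45 to 5.5). It was lost without J1 2i replicate 1 (1.47, adjusted p = 0.0665), J1 2i replicate 3 (1.23, 0.0887), 3B3L 2i replicate 1 (1.47, 0.0549) or 3B3L 2i replicate 3 (1.30, 0.0882).

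Cdx2 was lower in every 3B3L 2i library than in any J1 2i library, but its difference of -0.55 ± 0.24 missed the threshold (edgeR adjusted p = 0.0776). It passed without J1 2i replicate 3 (-0.68, adjusted p = 0.0462) and in a fit to the 6 libraries in 2i (-0.56, 0.0491). Evx1 overlapped between lines (1.04 ± 0.74, adjusted p = 0.278).

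In serum, 3 of the 7 genes were called between lines, all higher in 3B3L. The share called (42.9%) was near the 38.7% of all tested genes, of which 21.5% were called higher in 3B3L. Cdx4 was 1.97 ± 0.35 higher on the log2 scale (edgeR adjusted p = 0.000377), a 4.02-fold difference in level with no overlap. T was 0.76 ± 0.24 higher (adjusted p = 0.0214), but the libraries overlapped, and the call was lost without J1 serum replicate 3 (0.52, 0.0941), 3B3L serum replicate 1 (0.68, 0.0658) or 3B3L serum replicate 2 (0.66, 0.0872). Tlx2 was called at adjusted p = 0.00398, from 8 reads in 3B3L against 0 in J1. The call was kept in the 18 alternatives in which Tlx2 was tested (adjusted p of 0.00246 to 0.025). In the fit to the 6 serum libraries alone, Tlx2 failed the filter on low counts. It entered the serum test only through its 2i reads, on which it was picked, so these alternatives do not make the call firm. Both group means were under the floor, although 3B3L serum replicate 2 held 4 reads, so no fold is given.

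Cdx1 (-0.19 ± 0.30, edgeR adjusted p = 0.658), Nkx1-2 (-0.53 ± 0.30, 0.178), Cdx2 (0.01 ± 0.34, 0.984) and Evx1 (-1.27 ± 0.85, 0.261) were not called between lines in serum. The signs for Cdx1, Cdx2 and Evx1 turned with single libraries. For Evx1, the 10 reads in 3B3L and 25 in J1 gave a ratio of 0.404 (95% exact interval 0.173 to 0.871, counting error only), and 19 of the 25 came from 1 library.

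**Figure D3:**
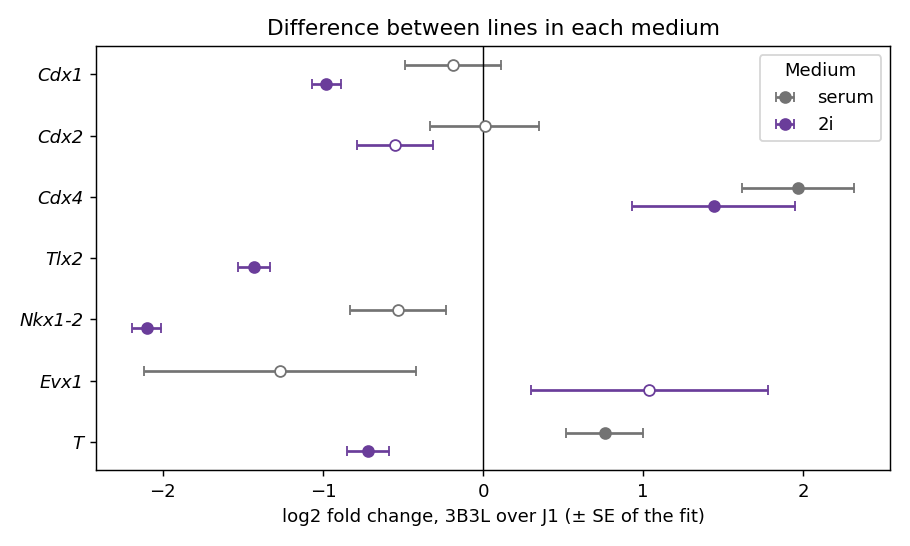
Fitted log2 fold change of 3B3L over J1 in serum (grey) and 2i (purple), with SE bars from the fit to 12 libraries. Filled points passed an adjusted p of 0.05 and open points did not. Tlx2 in serum is left out because the means of both lines were under the floor. In 2i Cdx1, Tlx2, Nkx1-2 and T lie left of 0 and Cdx4 lies right of 0 in both media.

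The 2i effect itself, compared between lines as the 3B3L difference minus the J1 difference, was negative for 6 of 7 genes. It was -1.58 ± 0.33 on the log2 scale for Nkx1-2, -1.48 ± 0.28 for T and -0.79 ± 0.32 for Cdx1. Cdx2 (-0.56 ± 0.42) and Cdx4 (-0.53 ± 0.67) had errors near the size of the value, so their signs are not settled. For Cdx4, which was lower in 2i, a negative value is a larger fall in 3B3L and not a smaller rise. Evx1 was at 2.30 ± 1.13. Evx1 went to 0.87 without J1 serum replicate 2 and to 3.39 without J1 2i replicate 3, and Cdx4 to -1.23 without J1 serum replicate 1. The median over all tested genes was -0.03, so negative values were common, and the count of 6 is not read as a shared trait. For Tlx2 the fitted value depends on the J1 serum libraries at 0 and is not a bound. No test is given because the genes were picked on these effects.

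Genes next to these factors also differed between lines in 2i. Of the 28 nearest annotated neighbours (4 per gene), 18 were tested, and 9 were lower and 2 higher in 3B3L, where 22.9% of all tested genes were called lower and 23.0% higher. All 4 neighbours of Nkx1-2 were lower: Oat at -1.21 ± 0.05 (edgeR adjusted p = 1.21e-10), Lhpp at -1.40 ± 0.09 (4.81e-09), Fam53b at -1.24 ± 0.09 (1.59e-08) and Chst15 at -1.05 ± 0.16 (7.64e-05). Of these, 3 were also lower in 3B3L in serum, Oat at -0.93 ± 0.06 (adjusted p = 8.74e-09), Lhpp at -1.20 ± 0.11 (6.72e-07) and Fam53b at -0.81 ± 0.12 (5.18e-05). The 3 tested neighbours of Tlx2 were lower in 2i and not called in serum, Aup1 at -0.60 ± 0.06 in 2i, Pcgf1 at -0.52 ± 0.06 and Dqx1 at -0.34 ± 0.10. Next to Cdx1, Pdgfrb was lower in 2i (-1.41 ± 0.10, adjusted p = 1.59e-08), and Camk2a and Slc6a7 were not called. Next to Cdx4, 4930519F16Rik was higher in 3B3L in 2i (0.65 ± 0.13, adjusted p = 0.000871) and in serum (0.51 ± 0.15, 0.0146). Chic1 was higher in serum (0.42 ± 0.12, adjusted p = 0.0116) and not called in 2i. Thus Nkx1-2 and Tlx2 lay among genes that were also lower in 3B3L in 2i, and Cdx4 beside genes that were also higher in serum. The part of this in their own differences was not tested. DNA copy number of these regions in the 2 lines was not analysed here. Neighbours were named here after their values were seen.

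Of the other genes of the posterior progenitor programme (26 listed, 24 tested), most fell in 2i. In J1, 6 rose and 14 fell, with a median of -1.14 on the log2 scale against 0.01 over all tested genes, of which 66.1% were called (33.2% higher and 32.9% lower in 2i). In 3B3L, 7 rose and 16 fell, with a median of -1.26 and a background of 65.4% (32.7% in each direction). Genes with known Wnt response went in both directions. Sp5, a Wnt-induced zinc finger repressor, rose by 3.95 ± 0.10 in J1 and 3.09 ± 0.10 in 3B3L (edgeR adjusted p = 2e-14 and 1.86e-13). Axin2, a feedback inhibitor of Wnt signalling, rose by 3.35 ± 0.05 in J1, to 127 ± 3.88 CPM (adjusted p = 1.25e-16). Lef1, itself a Wnt target, fell by 3.21 ± 0.10 in J1 (adjusted p = 1.99e-13). Wnt5b rose by 3.68 ± 0.15 in J1, and Wnt3a, a ligand of the tail bud, rose by 3.19 ± 0.22 in 3B3L and 1.60 ± 0.22 in J1 (adjusted p = 7e-12, 2.4e-09 and 7.46e-06).

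Of the genes named from this list, Dll1, Lfng, Wnt5a and Sall4 fell in 2i in both lines. Sall4 changed by -0.93 ± 0.05 on the log2 scale in J1 and by -0.39 ± 0.05 in 3B3L (edgeR adjusted p = 1.62e-10 and 4.21e-06). The Notch ligand Dll1 went from 9.97 ± 1.75 to 0.256 ± 0.0572 CPM in J1, a serum over 2i ratio of 38.7 (95% exact interval 27.4 to 56.5). In 3B3L it went from 3980 reads to 7, a ratio of 590 (286 to 1469). Lfng, which modifies Notch, fell by 3.81 ± 0.12 on the log2 scale in 3B3L (edgeR adjusted p = 1.49e-13), and Wnt5a fell by 3.44 ± 0.24 in J1 (adjusted p = 3.19e-09).

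Between lines in 2i, 3 of these 24 genes were higher in 3B3L and 9 lower, with a median of -0.08 and 45.9% of all tested genes called. Axin2 was lower in 3B3L (-1.30 ± 0.04 on the log2 scale, edgeR adjusted p = 1.08e-11) and so was Wnt5b (-0.99 ± 0.12, 6.56e-06). Wnt3a was higher (0.98 ± 0.17, adjusted p = 0.000236), as was Sall4 (0.60 ± 0.05, 1.53e-07). So Axin2, Wnt5b and Sp5 (-0.56 ± 0.07, adjusted p = 1.69e-05) shared the direction of Cdx1 and T, and Wnt3a did not.

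**Figure D4:**
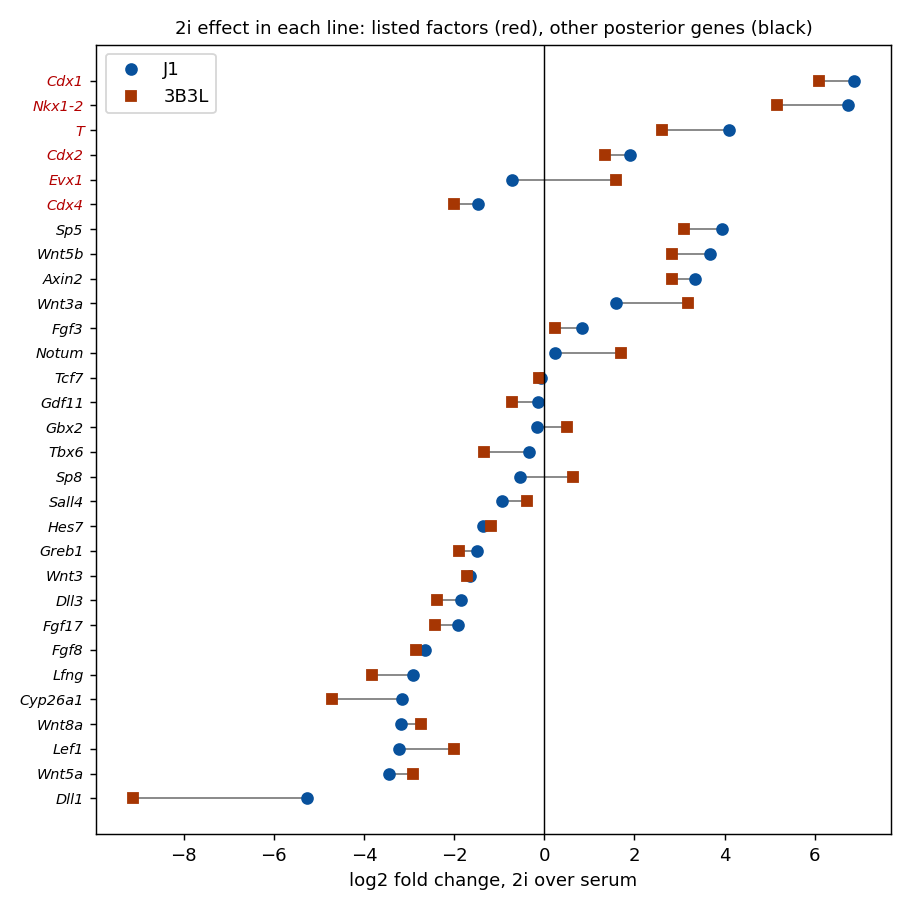
Fitted log2 fold change of 2i over serum in J1 (circles) and 3B3L (squares) for the picked factors (red names, without Tlx2, whose J1 serum libraries are at 0) and the other tested posterior progenitor genes (black names). The grey line joins the lines. Cdx1, Nkx1-2 and T lie at the right, Sp5, Wnt5b, Axin2 and Wnt3a are right of 0, and Dll1 is at the left, where the 3B3L value rests on 7 reads in 2i.

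Among 22 relatives of these factors by family, 13 were tested. In 2i against serum, 9 rose and 3 fell in J1, and 5 rose and 4 fell in 3B3L, with medians of 0.70 and 0.14, where 66.1% and 65.4% of all tested genes were called in either direction. The T-box genes Tbx15 (4.30 ± 0.21 in 3B3L and 3.52 ± 0.22 in J1) and Tbx18 (4.0 ± 0.25 and 3.36 ± 0.29) rose in both lines, and Tbx21 fell (-2.97 ± 0.23 in J1 and -1.99 ± 0.23 in 3B3L), with the highest edgeR adjusted p of these at 1.26e-06. Tbx4 fell by 3.35 ± 0.32 in J1 (adjusted p = 1.75e-07). Tbx20 was lower in 2i in 3B3L (-0.83 ± 0.18, adjusted p = 0.000811) and higher in J1 (0.68 ± 0.18, 0.00412).

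Between lines in 2i, 3 of the 13 relatives were higher in 3B3L and 4 lower, with a median of 0.12, where 45.9% of all tested genes were called. Tbx18 (1.08 ± 0.18, edgeR adjusted p = 0.000166) and Tbx15 (0.62 ± 0.15, 0.00258) were higher in 3B3L, the opposite of T. Eomes, a T-box factor of trophectoderm and of the early streak, was lower (-0.60 ± 0.07, adjusted p = 2.8e-06), as was Tbx20 (-0.66 ± 0.18, 0.00765), whose call was lost without J1 2i replicate 2 (-0.42, 0.0549) and with length offsets (-0.47, 0.211).

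Markers of cell types in which these factors act were examined beside them. The summed level of 8 primitive streak and mesoderm markers was 6.13 to 7.24 CPM in serum and 20.3 to 33.3 CPM in 2i. Eomes made up most of the 2i sum, with means of 28.1 CPM (J1) and 18.6 CPM (3B3L), and Mesp1, Foxa2 and Lhx1 were at or under the floor in every 2i library. Mean levels of Gsc were 0.274 CPM in serum and 0.982 CPM in 2i for J1, and 0.324 and 1.33 CPM for 3B3L. Those of Mixl1 were 0.396 and 0.63 CPM, and 0.36 and 0.584 CPM. The remaining markers of this list went the other way. Tbx6, Mesp1, Foxa2, Lhx1 and Hand1 each had a lower mean in 2i than in serum, whichever the line. For Tbx6 the J1 means were 0.966 CPM (serum) and 0.767 CPM (2i), and the 3B3L means 0.835 CPM (serum) and 0.332 CPM (2i). Of 11 trophectoderm markers measured, the sum went from 131 to 146 CPM (serum) to 238 to 266 CPM (2i) in J1, and was 226 to 271 and 230 to 241 CPM in 3B3L. The highest of these in J1 2i were Krt8, with a mean of 113 CPM (60.4 in serum), and Tead4, with 94.6 CPM (24.3 in serum). In 3B3L, Tead4 averaged 29.1 CPM in serum and 71.2 CPM in 2i. Hand1 and Plac1 were below 0.07 CPM on average in 2i in both lines and Elf5 below 0.5 CPM. Krt18 averaged 39.7 CPM in serum and 11 CPM in 2i in J1, and 86.6 and 12.1 CPM in 3B3L. Krt7, Ascl2, Gata3, Hand1 and Plac1 also had lower means in 2i in both lines. Eomes, Krt8, Tead4 and Elf5 had higher means in 2i in both lines, and Esx1 differed in direction between lines. Of the 6 gut epithelium markers, summed to 4.28 to 5.44 CPM in all groups, Fabp2 was at 0 in all libraries. Feeder fibroblast markers (10 genes) summed to 65.7 to 68.6 CPM (J1) and 80.8 to 92.4 CPM (3B3L) in serum, and to 25.7 to 27 and 16.2 to 16.7 CPM in 2i. Pdgfrb, also a neighbour of Cdx1, made up most of the J1 2i sum. Its means were 6.31 CPM in serum and 19.4 CPM in 2i in J1, and 7.39 and 7.33 CPM in 3B3L. Every other gene but Lum, which was at or near 0 throughout, had a lower mean in 2i in both lines. The part of any of these markers in the differences was not tested.

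The genes whose pattern over the 12 libraries was most like that of Cdx1 were found from the root mean square difference of log2(CPM + 0.1) values centred on each gene's mean. Tlx2 (0.49) and Nkx1-2 (0.52) were the 2 nearest of all tested genes with a symbol, a closeness that picking these 3 genes for their 2i effect largely fixed, followed by Pkd2l1 (0.62), 2510009E07Rik (0.67) and Crxos1 (1.01). The Tlx2 value depends on the pseudocount of 0.1, since its J1 serum libraries are at 0. Pkd2l1 averaged 31.3 CPM (J1) and 15.1 CPM (3B3L) in 2i. For T the nearest were Fgf10 (0.21), Plagl1 (0.25), Sp5 (0.32), Meis2 (0.36) and Aldh1l1 (0.36). Fgf10 was at 0.676 and 10.7 CPM in J1 serum and 2i, and at 1.05 and 7.2 CPM in 3B3L. The T list changed with the pseudocount.

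Transcript use could be compared between lines in 2i for Tlx2 and T only. Tlx2-001 held 93.3%, 100% and 98.3% of the Tlx2 reads in 3B3L and 93.6%, 92.2% and 89.2% in J1 (exact two-sided permutation p = 0.2, where 0.1 is the smallest possible). T-001 held 82% ± 4.03 (SD, n = 3) of T reads in 3B3L and 82.6% ± 1.65 in J1 (exact permutation p = 1). For T, 6.69% to 16% of the reads in 2i were in transcripts that could not be matched to a name here.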

How the data were processed

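Poly(A) RNA from 12 mESC libraries was prepared with a stranded kit. The authors ran Sailfish, strand-aware, on mm10 transcript models and summed the estimates per gene. The deposited estimated counts per gene are scaled by neither depth nor length. Depth was 37050652 to 44515395 estimated reads per library. The deposited transcript tables hold TPM and estimated counts. Pools of libraries are not matched to samples in the sources used here.

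Estimated counts were rounded and tested with edgeR 4.0.16 (R 4.3.3): filterByExpr (17885 genes), TMM, and a quasi-likelihood fit with 1 coefficient per group to all 12 libraries. The common spread (BCV) came to 6.49%. Errors of log2 values are SE, and a call is an adjusted p under 0.05. Python 3.11.15 and SciPy 1.17.1 were used for the rest. The fit was tested on simulated data. Levels per kb divide the reads of each transcript matched to a gene by its effective length, sum them per gene and scale them to CPM. For T this leaves out the unmatched reads.

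The picked genes and all lists were chosen with earlier results of these data known. From the 2 lists, in each of 3 contrasts, the 2 called genes at each end of the fold changes were named if their higher group had at least 1 CPM, plus the 5 genes most like Cdx1 and the 5 most like T. Genes given in other sentences, among them Lef1, were named after their values were seen. Alternatives were DESeq2 1.42.0 size factors and Wald test, no filter, at least 10 counts in every library, the 6 libraries of a contrast, a replicate block, length offsets, summed transcripts, TPM shares, other pseudocounts and leaving out each library.

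Promoter windows and coordinates are from RefSeq tables for GRCm38.p6, matched by symbol (5 of 7 genes for promoters). Replicates are labelled biological.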

Additional observations from a re-analysis of the deposited data

Results flagged for a closer look

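Tlx2 stood out because every 3B3L library was above every J1 library in serum and below every J1 library in 2i (mean 5.04 CPM in 3B3L 2i). The difference between the media was not tested for this gene, and the serum side rests on 8 reads.

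Of the 14 genes named from the lists, 11 had a 2i effect that differed between lines in the test of the interaction. Of all 17885 genes tested, 34.7% were called in it. The 14 were named as called genes with the most extreme fold changes in contrasts that share libraries with the interaction. A high share of calls among them was therefore largely fixed by the naming. Over the whole lists, 15 of 24 posterior progenitor genes and 6 of 13 relatives were called. The values below are the 3B3L effect minus the J1 effect on the log2 scale, with edgeR adjusted p. The effect was lower in 3B3L for Axin2 (-0.50, 6.83e-05), Dll1 (-3.87, 6.42e-05, with 7 reads in 3B3L 2i), Eomes (-0.91, 2.92e-05), Lfng (-0.90, 0.00121), Sp5 (-0.86, 0.000382), Tbx20 (-1.50, 0.000348) and Wnt5b (-0.84, 0.0149). It was higher in 3B3L for Sall4 (0.54, 3.29e-05), Tbx21 (0.98, 0.0394), Tbx4 (2.72, 0.000127) and Wnt3a (1.59, 0.00147). Lists were chosen with earlier results of these data known.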

How the results depend on the processing

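Under the requirement of at least 10 counts in every library, which by its construction tests fewer genes, only Cdx1 and T were left among the picked genes, of which 2 were called between lines in 2i and 1 in serum, 2 did not overlap between media in J1 and 2 in 3B3L, and 2 had a negative difference of 2i effects. The posterior progenitor list then had 13 calls between media in J1 and 15 in 3B3L, and the relatives 6, 3 and, between lines in 2i, 2. No other alternative moved these counts by over 1.5 times. In serum between lines, Cdx2 changed sign to -0.01 with no filter and in the fit to 6 libraries, and ranged from -0.26 to 0.24 with single libraries left out, turning negative without J1 serum replicate 1 (-0.26) or 3B3L serum replicate 1 (-0.10) or 2 (-0.14). Cdx1 ranged from -0.41 to 0.11 and was positive without J1 serum replicate 2 (0.11) or 3B3L serum replicate 1 (0.06). Evx1 ranged from -1.68 to 0.14 there and from -1.80 to 0.70 between media in J1, with both upper values without J1 serum replicate 2. The difference of T-001 between lines was 4.0 points by TPM and -0.55 by reads. The cause of these changes was not tested. With a pseudocount of 0.5, 5 of the genes most like Cdx1 and 2 of those most like T remained, and with 1, 3 and 1.

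Samples with the same replicate number did not deviate together (r from -0.118 to 0.0167 over 12 pairs, none over 0.1), so the numbers do not pair them. With the replicate block the counts of picked genes called stayed at 5 in 2i and 3 in serum. Depth limits Cdx2, Cdx4, Evx1 and all serum levels, which rest on few reads per gene.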
